A study of Mus musculus with 54 samples.

Results

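The eosinophil granule genes Prg2, Prg3 and Epx were followed through single myeloid progenitor cells of mouse bone marrow. Their rows were found by symbol among the 27297 gene rows of the deposited count table, and all 3 were present: Prg2 and Epx as rows of their own and Prg3 in a row joined with Mbp2, which RefSeq lists as a synonym of Prg3. The cells were profiled by MARS-seq, a plate method that tags the 3' end of each mRNA with a barcode of its well and a molecular identifier (UMI), so that UMIs count captured molecules. The 54 samples are amplification pools of 192 wells, of which 190 held a sorted cell and 2 held none.

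All cells were lineage-negative, cKit-positive and Sca1-negative marrow cells of C57BL/6 mice. By the authors' well table, 4 pools came from Cebpe KO mice (Cebpe-/-) and 2 from Cebpe control mice (Cebpe+/+). Cebpa KO (12 pools) is Cebpa(flox/flox) with Mx1-Cre, a Cre that poly(I:C) switches on, and Cebpa control (6 pools) is Cebpa(flox/flox). Pools that GEO labels as Cebpa KO or Cebpa control carry poly(I:C) labels, and 2 of those labelled control have a strain label that also names Mx1-Cre. Mx1-Cre acts in many cell types, and the deleted part of Cebpa and of Cebpe is not stated in the labels. The gates within the common myeloid progenitors (CMP), which are CD34-positive with low Fc gamma receptor (FcgR), were CD41-positive (2 pools), Flt3- and Csf1r-positive (6 pools) and from Irf8-GFP mice, positive for GFP and MHC class II (6 pools). Unsorted myeloid progenitors of wild-type mice filled 16 pools. Mice were 6 to 8 weeks old, except 14 weeks for the samples numbered 21 to 32, some of which received 3 injections of 300 µg poly(I:C) 3 weeks before harvest.

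The GEO label and the authors' table name the same group for 36 pools and different groups for 18, and no Cebpe pool is among the 36. Groups below follow the table, and statements from the labels on age and injections follow the sample, not the group. By the table, Cebpe itself had 0 UMIs in all 4 Cebpe KO pools, against 40 and 21 UMIs in the Cebpe control pools, and the 2 pools whose GEO label reads Cebpe control had 0 Cebpe UMIs. Cebpa had 8 UMIs over 12 Cebpa KO pools, against 283 over 6 Cebpa control pools. Each group has 1 mouse identifier, so tests over pools measure only the spread between pools, which may be technical. Pools come 2 to a sorting plate, so the pools of a plate are not independent. Of 10260 cells, 8399 with at least 500 UMIs were kept (median 2646 UMIs), and a pool's kept cells held 121254 to 852363 UMIs.

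Eosinophils carry large granules packed with cationic proteins. Prg2 encodes major basic protein, which forms the crystalline core of the granule, Prg3 encodes its close relative, and Epx encodes eosinophil peroxidase, the haem enzyme of the granule matrix. Granule proteins are made in marrow precursors, and Cebpe, Gata1, Gata2 and Cebpa are transcription factors known for roles in that lineage.

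Prg2 and Prg3 are neighbouring genes on chromosome 2, while Epx lies on chromosome 11. The 250 bases before the start of Prg3 (GRCm38.p6, chr2:84987965-84988214, plus strand) and Epx (chr11:87875537-87875786, minus strand) are shown because their mRNAs appeared together in the same few cells. The sequences are from RefSeq, 5′ to 3′, with capitals marking GATAA, the core of a GATA factor motif (read as TTATC on the other strand), and TATAA, the core of a TATA box.
Prg3: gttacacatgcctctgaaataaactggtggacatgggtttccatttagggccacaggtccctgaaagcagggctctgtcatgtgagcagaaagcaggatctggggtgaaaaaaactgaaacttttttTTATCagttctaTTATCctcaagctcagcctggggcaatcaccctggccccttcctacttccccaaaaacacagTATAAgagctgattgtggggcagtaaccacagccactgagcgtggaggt
Epx: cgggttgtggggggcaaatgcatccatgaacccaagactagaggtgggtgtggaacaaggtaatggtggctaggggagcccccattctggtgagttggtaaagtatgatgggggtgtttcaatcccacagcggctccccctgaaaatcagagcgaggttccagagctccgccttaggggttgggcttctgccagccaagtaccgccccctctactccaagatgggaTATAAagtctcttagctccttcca
Both strands of each were searched for GATAA, TTGCNNAA (a C/EBP-type sequence), GAGGAA (an ETS-type sequence) and TATAA. The Prg3 stretch held GATAA on the opposite strand at positions -123 and -111, and TATAA at -49, counted from the start to the leftmost base. The Epx stretch held TATAA at -24 and none of the other motifs. Among 27025 RefSeq promoters of the same length, GATAA occurred in 23.0%, TTGCNNAA in 9.55%, GAGGAA in 23.1% and TATAA in 23.5%. A match describes the letters only.

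The 3 genes were carried by a handful of cells. Of the 8399 kept cells, 17 had 5 or more UMIs summed over the 3 rows (0.202%), and those cells held 1217 of the 1423 member UMIs (85.5%). All 17 cells had Prg2, 16 had Prg3, 13 had Epx and 12 had all 3. Their sums ran from 7 to 196 UMIs with a median of 69, and the 3 genes made up 0.255% to 20.6% of a cell's UMIs, with a median of 3.96%. No kept cell had exactly 4 member UMIs, 2 had 3, and 179 had 1 or 2, so the threshold fell in a near-empty stretch.

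**Figure D1:**
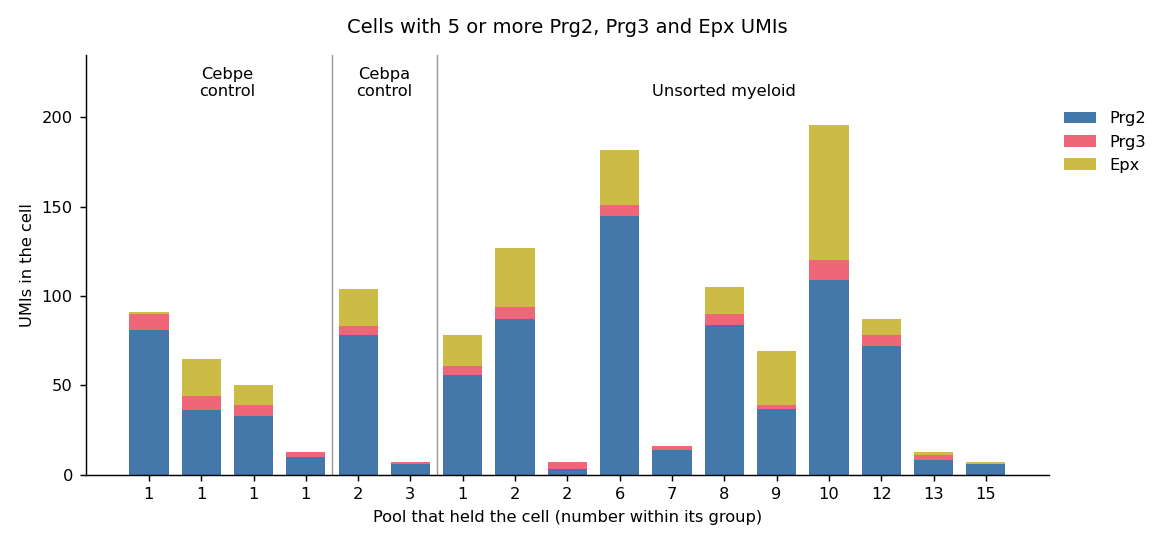
UMIs of Prg2, Prg3 and Epx (y axis, stacked) in each of the 17 cells with 5 or more, labelled by the pool that held the cell. Prg2 is the tallest part of all bars but 1, 11 bars stand at 50 or more, and 6 end below 20.

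Prg2 gave the most molecules. It ranged from 3 to 145 UMIs over the 17 cells (median 37), against 0 to 11 for Prg3 (median 5) and 0 to 76 for Epx (median 11). Prg2 made up 42.9% to 89.0% of a cell's member UMIs, with a median of 75.0%. Gene length does not enter a 3'-end count, but capture can differ between mRNAs, so these UMI counts do not rank the genes by mRNA level. Across the 8399 kept cells, on log2 of 1 plus UMIs per 1000 UMIs, the Pearson correlation was 0.864 between Prg2 and Prg3, 0.856 between Prg2 and Epx and 0.812 between Prg3 and Epx. These correlations rest on the 19, 15 and 13 cells that held a UMI of both genes of a pair, and all cells share a small pool of libraries.

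The 17 cells fell into 2 ranges, 11 cells with 50 or more member UMIs and 6 with fewer than 20, with no cell from 20 to 49. Epx gave 265 of the member UMIs in the upper range (23.0%, exact 95% interval 20.6% to 25.5%), and all 11 of those cells had it. In the lower range Epx gave 3 member UMIs (4.76%, 0.993% to 13.3%), in 2 of 6 cells. The upper range also held more Calr, a calcium-binding chaperone of the endoplasmic reticulum, at 12990 CPM (counts per 1000000 UMIs, here those outside the 3 genes; 11308 to 14852) against 7448 (6104 to 9000) in the lower range. P4hb, protein disulphide isomerase, had 4553 CPM (3581 to 5707) in the upper range and 2158 (1466 to 3063) in the lower. The primary granule protease gene Prtn3 ran the other way, at 3096 CPM (2305 to 4070) in the upper range and 5778 (4602 to 7162) in the lower. Of the 83 Prtn3 UMIs in the lower range, 48 came from a single cell of 5104 UMIs, so that contrast rests largely on that cell. Cebpe had overlapping intervals in the 2 sets, with 1578 CPM (1031 to 2312) in the upper range and 1114 (637 to 1809) in the lower. The ranges were drawn after the values were seen and come from 17 cells of few mice, so no test was made, and the intervals cover counting error only.

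**Figure D2:**
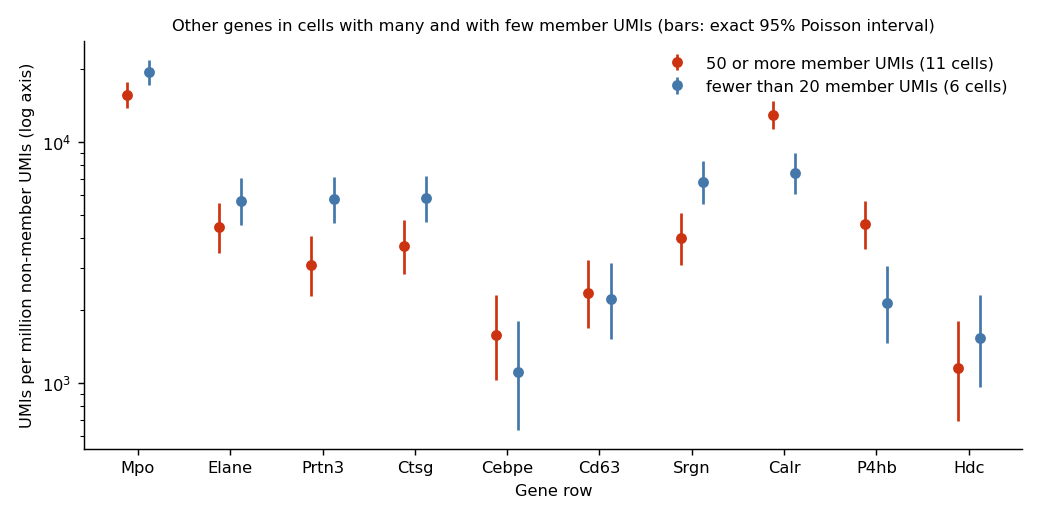
CPM of UMIs outside Prg2, Prg3 and Epx (y axis, log scale) of 10 other genes in the 11 cells with 50 or more member UMIs and the 6 cells with fewer than 20, with exact 95% Poisson intervals. Calr and P4hb stand higher in the upper range, and Prtn3 and Srgn stand higher in the lower, where 48 of the 83 Prtn3 UMIs came from a single cell.

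Cebpe KO cells were compared with Cebpe control cells, since Cebpe is needed for terminal granulocyte maturation in mice. The 3 genes were nearly absent from the KO pools. Summed over the group, Prg2 had 4 UMIs in Cebpe KO cells and 170 in Cebpe control cells, Prg3 had 2 and 38, and Epx had 2 and 40. Together they made 3.73 CPM in Cebpe KO cells (exact 95% Poisson interval 1.61 to 7.34) and 210 CPM in Cebpe control cells (185 to 238). The log2 ratio of KO over control was -5.82 (-7.05 to -4.82, counting error only).

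By pool, the summed count was 3, 5, 0 and 0 UMIs in the 4 Cebpe KO pools, against 246 and 2 UMIs in the 2 Cebpe control pools. Control pool 1 thus held nearly the whole control signal, and control pool 2 lay inside the range of the KO pools, so the groups overlapped. The KO UMIs were 1 Prg2 and 2 Epx in pool 1 and 3 Prg2 and 2 Prg3 in pool 2. Control pool 1 held 170 Prg2, 38 Prg3 and 38 Epx UMIs, and the 2 UMIs of control pool 2 were Epx in 1 cell. Mean levels were 4.59 ± 5.65 CPM in Cebpe KO pools (SD, n = 4) and 208 ± 290 CPM in Cebpe control pools (SD, n = 2), a difference of -204 CPM. The exact two-sided permutation test over pools gave p = 0.2, and p = 0.209 after Benjamini-Hochberg adjustment over the 5 group comparisons. With 4 pools against 2, the smallest p it allows is 0.0667. The Cebpe KO pools came from 2 plates and the Cebpe control pools from 1, so with plates as the unit the exact permutation p was 0.333, the smallest that 2 against 1 allows. Without control pool 1 the difference was 1.18 CPM (exact permutation p = 1).

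None of the 3 genes passed the filter on low counts in the edgeR quasi-likelihood test of these pools, so that test gave them no value. Among the 7369 rows it did test, 23.4% were called at an adjusted p under 0.05, 13.5% higher and 9.85% lower in Cebpe KO cells. With the filter off, edgeR gave Prg2 a log2 change of -5.96 (SE 0.44, adjusted p = 2.69e-39), Epx -4.73 (adjusted p = 1.87e-08) and Prg3 -4.66 (adjusted p = 5.96e-08). Without control pool 1 the same fit gave adjusted p = 0.591 for Prg2, 0.692 for Epx and 0.71 for Prg3. The lone control pool then left had 0 Prg2 and 0 Prg3 UMIs, and the fit assumes that it varies like the KO pools.

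Per cell, 0 of 559 Cebpe KO cells had 5 or more member UMIs, which allows a share of up to 0.537%, against 4 of 250 Cebpe control cells (1.6%, exact 95% binomial interval 0.438% to 4.05%). All 4 control cells came from pool 1, with 91, 65, 50 and 13 UMIs, and pool 2 had 0 of 123, which allows up to 2.44%. FcgR intensity at the index sort reached 1000 in 424 of 554 Cebpe KO cells with a reading, against 96 of 248 Cebpe control cells. The cut of 1000 was chosen after the data were seen, and all 4 control cells with 5 or more member UMIs lie above it. Among those FcgR-high cells, 0 of 424 KO cells had 5 or more member UMIs (up to 0.708%), against 4 of 96 control cells (4.17%, 1.15% to 10.3%). Thinned to 1000 UMIs a cell, which left out 50 KO and 27 control cells, 0 of 509 KO cells and 3 of 223 control cells reached 5.

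**Figure D3:**
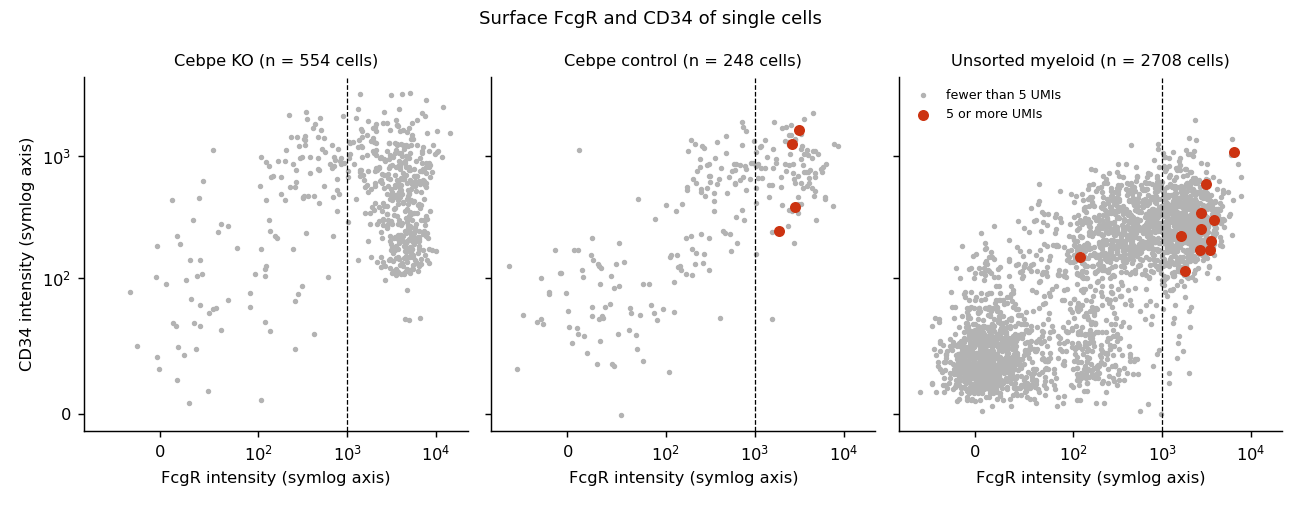
Surface FcgR (x axis) and CD34 (y axis) intensity of index-sorted cells, both symlog axes, for Cebpe KO, Cebpe control and unsorted cells, with cells of 5 or more member UMIs in red and a dashed line at an FcgR of 1000. The KO panel holds many FcgR-high cells and no red point, while all 4 control cells and 10 of 11 unsorted cells lie right of the line.

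Other genes of the lineage moved both ways in Cebpe KO cells, where the median log2 change over all tested rows was -0.01. Of 13 tested regulator rows, 7 rose and 4 fell (edgeR, adjusted p under 0.05; median 0.84), and 1 of the 4 was Cebpe itself, the deleted gene. Cebpa rose, with 293 CPM in Cebpe KO cells and 48.3 in Cebpe control cells (log2 2.74, SE 0.22, adjusted p = 2.33e-10), and so did Id1 and Sfpi1, which encodes PU.1. Gata1 fell, at 57.3 CPM in KO cells and 182 in control cells (log2 -1.58, SE 0.24, adjusted p = 8.67e-06), and so did its cofactor Zfpm1 and Ikzf1. Gata2 had 80.6 CPM in KO cells and 131 in control cells and did not pass (adjusted p = 0.0535). Of 8 tested cytokine receptor rows, 5 rose and 0 fell (median 1.37). The receptor subunits Csf2rb and Csf2ra, which serve GM-CSF signalling and, for Csf2rb, IL-5 signalling, rose by 2.80 and 2.32 on the log2 scale (adjusted p = 2.69e-09 and 3.61e-08, edgeR). All 7 tested rows of the granule packing and secretory list rose (median 1.21), Srgn among them (log2 1.41, SE 0.12, adjusted p = 1.18e-09). DESeq2 called 6 of those 7 rows and 4 of the 8 receptor rows. Of the eosinophil markers beside the members, the 2 that were tested, Fcer1g and Siglec5, rose. The erythroid list moved in the same comparison, with 9 of 10 tested rows lower in Cebpe KO cells (7 by DESeq2, median -1.57). Its sum was 2631 to 3947 CPM in KO pools against 9505 and 11233 in control pools. Of 10 neutrophil rows 9 rose (median 1.62), and the row that fell was Cebpe. All 7 tested secondary granule and S100 rows rose (median 5.60). Of the 12 listed rows, Ltf, Camp, Ngp, Mmp8 and Mmp9 were not tested, and Ltf, Ngp and Mmp9 had 0 UMIs in both groups. Of 6 tested basophil or mast rows 5 rose (3 by DESeq2) and 0 fell (median 1.56). The part of that cell mix in the values of the 3 genes was not tested.

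Cebpa KO cells lacked the 3 genes almost entirely. Prg2 had 3 UMIs in Cebpa KO cells and 107 in Cebpa control cells, Prg3 had 0 and 13, and Epx 0 and 23. The 3 KO molecules sat in 3 cells of 1 pool and the other 11 KO pools had none. By pool the Cebpa control counts were 1, 129, 8, 1, 1 and 3, so a single control pool held most of that signal as well. Means were 0.522 ± 1.81 CPM in Cebpa KO pools (SD, n = 12) and 49.2 ± 107 in Cebpa control pools (SD, n = 6), with an exact permutation p = 0.00199 (adjusted p = 0.00997). The difference was -48.7 CPM. Without control pool 2 it was -5.26 CPM, and the exact permutation p was 0.00598 (adjusted p = 0.0299). Within sequencing batch SB29 the difference was -6.56 CPM (exact permutation p = 0.00202, the smallest it allows), and within SB23 it was -133 (p = 0.133). The SB29 control pools held 8, 1, 1 and 3 member UMIs, of which 7 lay in 1 cell. The rest are single UMIs, and the source of such UMIs was not tested. Counting only the UMIs of cells with 5 or more, the difference over all pools was -37.5 CPM (exact permutation p = 0.098, adjusted p = 0.163). With plates as the unit, 6 KO against 3 control, it was -54.3 CPM (exact permutation p = 0.0119, the smallest it allows; adjusted p = 0.0595). Cells with 5 or more member UMIs numbered 0 of 1384 in Cebpa KO (up to 0.217%) and 2 of 890 in Cebpa control (0.225%, 0.0272% to 0.809%). Again 0 of the 3 genes passed the edgeR filter, beside 18.2% of 5977 tested rows called, 9.59% higher and 8.58% lower. Cebpe fell in Cebpa KO cells, with 5 UMIs over the KO pools and 185 over the control pools (log2 -5.63, SE 0.48, adjusted p = 1.14e-09), and of 10 tested regulator rows 0 rose and 4 fell (median 0.11, against 0.02 over all tested rows), 1 of the 4 being Cebpa, the deleted gene. The neutrophil list fell in all 7 tested rows in Cebpa KO cells (median -5.42), at 88.0 to 1243 summed CPM in KO pools against 10550 to 19516 in control pools, and FcgR reached 1000 in 29 of 536 KO cells with a reading against 124 of 332 control cells. The part of these shifts in the values of the 3 genes was not tested, and in pooled sums fewer cells of a type and less RNA per cell cannot be told apart.

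The CMP gates held almost none of the 3 genes. Prg2 had 0 UMIs in all 3 gates, against 698 in unsorted cells. Summed levels were 1.37 CPM in CD41 cells (exact 95% Poisson interval 0.0347 to 7.63), 2.08 in Flt3+ Csf1r+ cells (0.763 to 4.53), 1.40 in Irf8-GFP+ MHCII+ cells (0.454 to 3.26) and 102 in unsorted cells (95.9 to 109). Over all 8 groups the order from low to high was Cebpa KO (0.712), CD41, Irf8-GFP+ MHCII+, Flt3+ Csf1r+, Cebpe KO (3.73), Cebpa control (49.7), unsorted (102) and Cebpe control (210). The intervals of neighbours overlapped among the 5 lowest, and the 3 highest differed beyond counting error but overlapped in the ranges of their pools. No gated cell had 5 or more member UMIs, in 336 CD41, 1132 Flt3+ Csf1r+ and 1116 Irf8-GFP+ MHCII+ cells, which allows up to 0.893%, 0.265% and 0.269%. The unsorted pools ranged from 0 to 435 CPM with a median of 26.5. Exact permutation tests against unsorted pools gave p = 0.209 for the CD41 gate, 0.0502 for Flt3+ Csf1r+ and 0.0493 for Irf8-GFP+ MHCII+, and none passed after adjustment (0.209, 0.0837 and 0.0837). The gates take low-FcgR cells. The Flt3+ Csf1r+ and Irf8-GFP+ MHCII+ gates share no sequencing batch with the unsorted pools, so for them gate and batch cannot be told apart. The CD41 pools share batch SB17 with 4 unsorted pools. Within SB17 the mean was 1.41 CPM in 2 CD41 pools and 97.8 in the unsorted pools (exact permutation p = 0.133, smallest possible 0.0667).

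**Figure D4:**
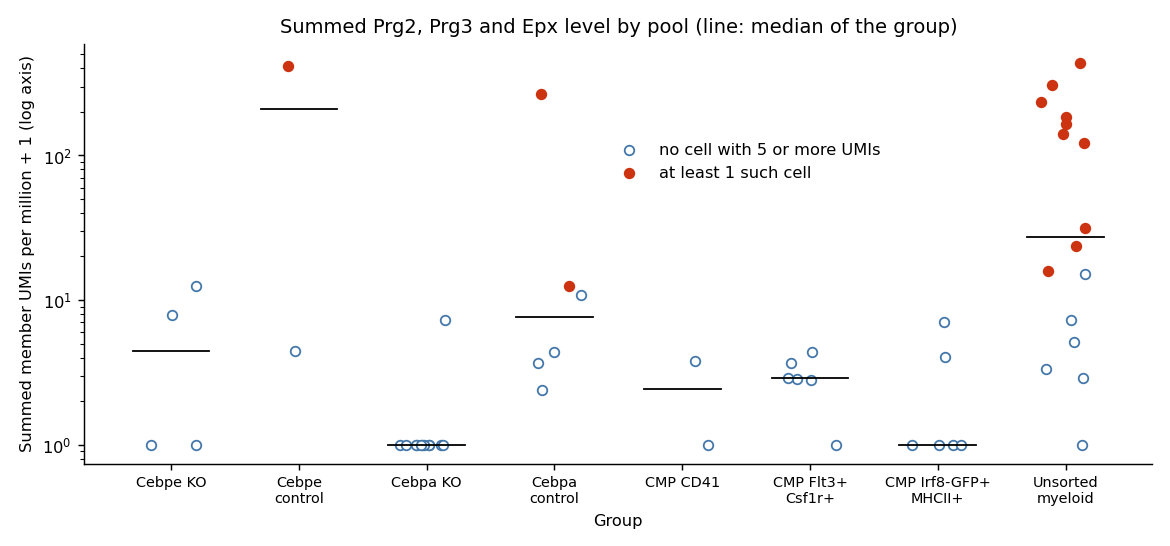
Summed Prg2, Prg3 and Epx CPM, plus 1, by pool (y axis, log scale) for the 8 groups, with the median of each group as a line and filled points for pools that held a cell with 5 or more member UMIs. The highest pools of the Cebpe control, Cebpa control and unsorted groups are filled, and no Cebpe KO, Cebpa KO or gated pool is.

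In unsorted marrow, 11 of 2732 cells had 5 or more member UMIs (0.403%, exact 95% binomial interval 0.201% to 0.719%), spread over 10 of 16 pools. Their FcgR intensity ran from 119 to 6380 with a median of 2738, against a median of 215 for the other unsorted cells, and 10 of the 11 lay at 1000 or above. The cell at 119 had 7 member UMIs, 5 Mpo and 2 Gata1 UMIs, and 0 UMIs of Cebpe, Cd63, Srgn and Prtn3. Surface CD34 of the 11 cells had a median of 221, against 130 for the other unsorted cells. Among unsorted cells with an FcgR of at least 1000 the high cells made up 10 of 739 (1.35%, 0.651% to 2.47%). The 11 cells were shallow, with a median of 1313 UMIs against 3113 for the other unsorted cells.

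Among other genes that met the rule on detection, Cebpe had the highest ratio in the 11 unsorted cells, with 26 UMIs in 9 cells. It had 1731 CPM of UMIs outside the 3 genes in these cells and 57.8 in the other unsorted cells, a log2 ratio of 4.90 (exact 95% interval 4.28 to 5.47, counting error only). Cd63, a tetraspanin of granule membranes, followed at 4.12 (3.46 to 4.72), then Myl12b at 2.54, Calr at 2.07 and Srgn, the proteoglycan core that packs granule contents, at 1.87. Mpo, the neutrophil peroxidase, was present in all 11 cells at 1.26 (1.07 to 1.43). Among the lowest ratios were the erythroid genes Car1 at -3.03 (-4.47 to -1.90) and Car2 at -2.28 (-3.24 to -1.48). Over the 4613 rows with a UMI in both sets the median log2 ratio was 0.56, and a row enters this median only with a UMI in the 11 cells.

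Set against the 729 other unsorted cells of FcgR 1000 or above, the ratios were smaller and some changed sign. Cebpe remained high, with 1890 CPM in the 10 FcgR-high cells of this kind and 151 in the other FcgR-high cells (log2 3.65, 3.01 to 4.22), and Cd63 stood at 3.01 (2.33 to 3.61). Mpo did not differ beyond counting error, at 18026 and 17980 CPM (log2 0.00, -0.18 to 0.18). Prtn3 was lower, at 3634 CPM against 13415 (log2 -1.88, -2.31 to -1.48), and Elane, neutrophil elastase, was lower as well, at 3998 against 10028 (log2 -1.33, -1.74 to -0.95). Car1 and Car2 no longer differed beyond counting error, at 0.38 (-1.25 to 1.61) and 0.86 (-0.36 to 1.84). Cells are not replicates, so these ratios carry counting error only and no test.

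**Figure D5:**
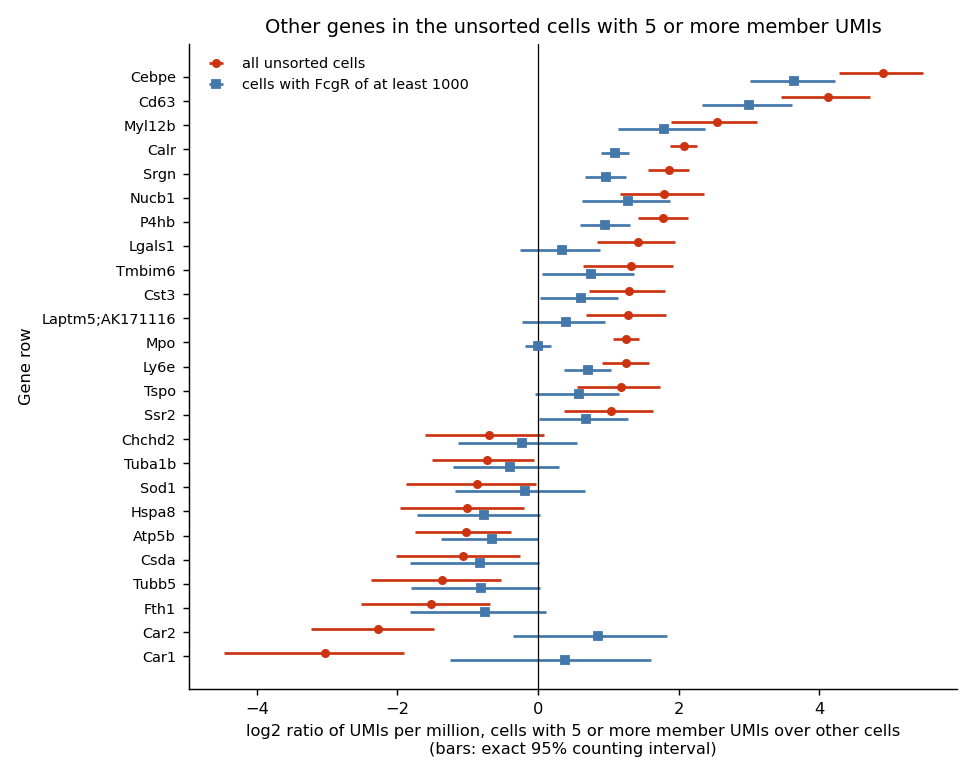
Log2 ratio of CPM between unsorted cells with 5 or more member UMIs and other cells (x axis), for the 15 highest and 10 lowest rows, over all unsorted cells and over cells with an FcgR of at least 1000, with exact 95% counting intervals. Cebpe and Cd63 lie furthest right in both, while Mpo, Car1 and Car2 move to 0 or across it among FcgR-high cells.

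Markers of later eosinophils were at or near 0 beside the granule genes. The Ear ribonuclease rows, Il5ra, Ccr3, Emr1 and Alox15 had 0 UMIs in the 11 unsorted cells. Siglec5 had 2 UMIs in 1 cell (log2 ratio 3.55, 0.49 to 5.44, counting error only) and Fcer1g had 4 in 2 cells (0.99, -0.89 to 2.35). Over all 17 cells Ear1 and Il5ra had 1 UMI each, Siglec5 had 3 and Fcer1g 6, and in the other kept cells Ear1 had 0 and Il5ra 3. A count of 0 in the 11 cells allows up to 199.7 CPM, so absence cannot be read from these zeros. Of the regulators, Gata2 had 5 UMIs in 4 cells (log2 1.71, 0.08 to 2.94), Gata1 had 4 in 2 cells (0.07, -1.81 to 1.43) and Cebpa 3 in 3 cells (0.87, -1.41 to 2.42). Of the secondary granule rows of neutrophils, 11 of 12 were at 0 and Ltb4r1, a leukotriene B4 receptor, had 4 UMIs, so the list summed to 266 CPM in the 11 cells and 73.1 in the other unsorted cells. The 7 rows of the dendritic and MHC class II list were at 0, against 168 CPM in the other unsorted cells, which is below what a count of 0 allows here.

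Basophil and mast cell genes appeared in some of the same cells. Hdc, histidine decarboxylase, had 17 UMIs in 9 of the 11 unsorted cells (log2 3.57, 2.78 to 4.25), and the basophil proteases Prss34 and Mcpt8 had 9 and 6 UMIs in 3 cells each. Of the 14 rows of that list, 7 had a UMI there, at 9919 CPM summed in these cells and 2153 in the other unsorted cells, mostly from Srgn, which many myeloid cells express (100 of 149 UMIs in these cells and 17964 of 21239 in the others). Of that list Fcer1a, Ms4a2 and Cd200r3, markers of basophils and mast cells, were at 0. They had only 4, 3 and 0 UMIs in all other unsorted cells, and a 0 in the 11 cells allows up to 199.7 CPM. Their zeros therefore show no difference between the 2 sets of cells. Over all 17 cells, 7 had a UMI of Prss34 or Mcpt8. What part basophil transcripts play in these cells was not tested.

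The genes whose levels per cell, as log2 of 1 plus UMIs per 1000 UMIs, followed the summed member level most closely over the 8399 kept cells were Cebpe (Pearson r = 0.306), Gm5057 (0.264), Hdc (0.165), Cd63 (0.143), Usp53 (0.140), Itgav (0.133), Cuedc1 (0.130) and Arsb (0.123), out of 11600 rows compared. All are weak in sparse counts and rest on few cells, so they are given as a description.

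Single member UMIs were widespread and low. Unsorted cells rich in erythroid transcripts, which should lack the 3 genes, carried a member UMI in 54 of 1049 cells (5.15%, median depth 5029 UMIs) and never more than 2. Of the other unsorted cells, 70 of 1683 carried a member UMI (4.16%, median depth 2299 UMIs). Those 70 include the 11 unsorted cells with 5 or more member UMIs, so this share is not one of low counts alone. Depth differed between these sets, and the source of the UMIs in cells with 1 or 2 was not tested. The share in erythroid-rich cells also differed between groups. It was 10 of 97 in Cebpe control (10.3%) and 12 of 395 in Cebpa control (3.04%). In Cebpe KO it was 0 of 51 (up to 5.88%) and in Cebpa KO 0 of 673 (up to 0.446%). Cells with 1 to 4 member UMIs were more frequent in pools that held a high cell, at 139 of 2130 remaining cells over 13 pools (6.53%). Over the other 41 pools they numbered 42 of 6252 cells (0.672%). In Cebpe control pool 1, 21 cells had 1 to 4 UMIs and in pool 2, 1 cell had. Their makeup differed too: Prg3 gave 17.6% of the UMIs outside the high cells in the 13 pools (12.0% to 24.4%) and 44.7% in the 41 pools (30.2% to 59.9%), against 6.90% within the high cells (5.54% to 8.47%). In Flt3+ Csf1r+ pools all 6 member UMIs were Prg3. The 108 wells without a cell held 1 member UMI.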

How the data were processed

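MARS-seq libraries of 54 pools were read from the UMI count table deposited by the authors, which holds raw counts. Surface CD34 and FcgR are fluorescence intensity values from the index sort, per the file headers. The build mm9 and bcl2fastq 2.15.0.4 are named in the submitters' processing notes, with aligner and UMI counting not given in the sources used here. Groups follow the description in the authors' well table. Members and gene lists were chosen with earlier results of these data known. The genes named besides members and lists are the 15 highest and 10 lowest ratios among rows with 20 or more scaled UMIs, and the 8 most alike rows.

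Single-cell wells with 500 or more UMIs were kept. No doublet caller was run, since wells were sorted to hold 1 cell, and the 192 cell barcodes recur in every pool. Levels are CPM, counts per 1000000 UMIs. UMIs summed per pool were tested with edgeR 4.0.16 in R 4.3.3 (quasi-likelihood, TMM, filterByExpr, Benjamini-Hochberg), with DESeq2 1.42.0 as an alternative, and single values with exact permutation over pools. On simulated data edgeR recovered 12% of 2-fold and 67% of 4-fold changes over 7293 rows in the Cebpe design and 57% and 88% over 5938 rows in the Cebpa design. The simulation used a fixed dispersion, not a value estimated from these pools. It changed only rows that passed the filter, so these rates do not cover the 3 genes. Intervals are exact 95% binomial or Poisson; upper limits at 0 use 3 counts; both cover counting error only. None of 239 pairs of pools in a group was a copy (lowest chi-square per degree of freedom 1.35).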

Additional observations from a re-analysis of the deposited data

Results flagged for a closer look

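In groups of 4 to 10 pools, the highest or lowest pool was set against the others, and 7 of 13 group and row combinations had a pool far from the rest; chance flags about 1 in 20. In 5 of the 7 only 1 pool held a UMI, so its gap is the whole range and that rate does not hold there. Cebpa control pool 2 stood far above the other 5 pools, at 266.6 summed CPM, with 208.7 for Prg2 and 47.5 for Epx; 1 cell of 104 member UMIs lies in it. The other flags rest on 2 or 3 UMIs each: Prg3 at 4.62 CPM in Cebpe KO pool 2, Epx at 4.54 in Cebpe KO pool 1, Prg3 at 6.08 in Irf8-GFP+ MHCII+ pool 3 and Epx at 3.04 in Irf8-GFP+ MHCII+ pool 1.

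The 1861 cells under 500 UMIs, which the values above leave out, held 122 member UMIs, 109 of them in unsorted cells and 0 in Cebpe KO or Cebpa KO cells. Of these cells, 4 unsorted ones had 6, 10, 10 and 70 member UMIs, with FcgR intensities of 1969 to 3713.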

How the results depend on the processing

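Grouping pools by GEO label turned the permutation differences round, to 68.9 CPM for Cebpe (adjusted p = 0.667) and 27.5 for Cebpa (adjusted p = 1.00), and moved the summed level to 76.7 CPM in Cebpe KO and 55.8 in Cebpa KO. It also moved the share of cells with 5 or more member UMIs to 0% in Cebpe control and 0.272% in Cebpa KO. By label, Cebpe had 55 UMIs in Cebpe KO pools and 0 in Cebpe control pools.

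Leaving out 1 pool at a time gave Cebpe differences of -409 to 1.18 CPM, Cebpa -58.3 to -5.26, CD41 -111 to -81.5, Flt3+ Csf1r+ -110 to -81.0 and Irf8-GFP+ MHCII+ -110 to -81.4. Cells with 5 or more UMIs then made up 0% to 3.15% of Cebpe control cells, and rows called numbered 908 (without Cebpe control pool 2) to 1652 for Cebpe (1721 with all pools) and 752 to 1363 for Cebpa (1086 with all pools). Cebpa rows called numbered 68 by GEO label and 463 within SB29. Splits by sequencing batch and the FcgR cut of 1000 were chosen after seeing the data. So were plates as the unit and the count from cells with 5 or more member UMIs only. By exact permutation, the Cebpa difference was -133 CPM within SB23 (adjusted p = 0.209). By the same test it was -54.3 by plate (adjusted p = 0.0595) and -37.5 from cells with 5 or more member UMIs (adjusted p = 0.163). In cells of 1000 UMIs or more the unsorted mean was 65.6 CPM, against 105 with all kept cells, and the gate differences were -64.1 for CD41, -63.7 for Flt3+ Csf1r+ and -64.1 for Irf8-GFP+ MHCII+. Among cells of FcgR 1000 or above the share was 4.17% in Cebpe control and 1.35% in unsorted cells. In the genes beside the members, 14 ratios changed sign among FcgR-high cells, of which Car1 (0.38), Car2 (0.86) and Ctsg (-0.67) had an interval without 0 in all unsorted cells and 11 did not; over all groups together 10 did, of which Prtn3 (0.015) had such an interval and 9 did not; the cause was not tested. Under the other settings, 112 permutation differences kept their direction and side of the threshold and 94 shares stayed within their counting interval. No paired analysis was possible because the replicate numbers only follow accession order and pair no samples. The precision of the member values is limited by the 17 cells, and that of the Cebpe comparison by the single control pool that held 4 of them.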
